A study of Mus musculus with 8 samples.

Results

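Transcripts of 10 enzymes that make or break down prostanoids were followed in the 8 RNA-seq libraries of the series. These enzymes were the cyclooxygenases Ptgs1 and Ptgs2, the prostaglandin E2 synthases Ptges, Ptges2 and Ptges3, the prostaglandin D2 synthases Ptgds and Hpgds, the prostacyclin synthase Ptgis, the thromboxane synthase Tbxas1 and the catabolic enzyme Hpgd. They were chosen by gene symbol from what the proteins do, with earlier results of these data known. All 10 were found among the 54532 genes listed in the larger of the deposited tables.

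Prostanoids are lipid mediators made from arachidonic acid, which phospholipases and other lipases release from membrane lipids. A cyclooxygenase turns arachidonic acid into the unstable intermediate prostaglandin H2, and a terminal synthase then commits it to prostaglandin E2, prostaglandin D2, prostacyclin (prostaglandin I2) or thromboxane. The products act on G protein-coupled receptors and are known in the brain for roles in fever, sleep, vascular tone and neuroinflammation, and they are switched off by uptake and by oxidation through the product of Hpgd.

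The libraries were made from brain of male C57BL/6 mice on Day 21, with 2 libraries in each of 4 groups. The RS group received restraint stress, and the PTS + RS group received a photothrombotic stroke and restraint stress. In the other groups, mice with PTS + RS received RGFP109, given by the labels as an inhibitor of the histone deacetylase HDAC3, under the skin at 60 mg/kg daily for 2 weeks, or the control treatment that the labels call NaCl. The labels give cortex for all 4 libraries of the PTS + RS and RS groups, and cortex for replicate 1 and amygdala for replicate 2 of the RGFP109 and NaCl groups. The 2 replicates of the latter groups therefore differed in labelled tissue, and neither group had 2 libraries of the same labelled tissue. Whether a library came from 1 mouse or from several was not stated, so that the p-values measure the spread between these libraries.

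Each library held between 15902013 and 21712033 counts on genes, and the lowest count of any of the 10 transcripts was 25, for Ptgis. Some libraries stood apart in their tissue markers. NaCl replicate 1, labelled cortex, had 534 CPM (counts per library, scaled by its TMM-normalized size) of Cdhr1 and 122 CPM of Eomes, which mark the olfactory bulb, whereas the other 7 libraries had at most 10.2 and 2.57 CPM. The amygdala-labelled libraries had 37.6 and 39.0 CPM of the striatal gene Drd2, against at most 3.64 CPM elsewhere. Ttr, a choroid plexus gene, was between 1348 and 3359 CPM in PTS + RS replicate 1, both RS libraries and RGFP109 replicate 1, and at most 14.5 CPM in the other 4 libraries.

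Levels of different genes were compared as the deposited FPKM, fragments scaled to the listed gene length and to the reads of the library. Ranks and shares between genes thus depend on these lengths, which ran from 1649 bases for Ptgds to 9094 for Tbxas1. In the RS group, Tbxas1 and Ptgis had means of 3.08 and 3.12 CPM but of 0.337 and 1.21 FPKM. Ptgds was the highest of the 10 transcripts in every group, with FPKM from 170.0 to 778 over the 8 libraries, and Ptges3 was next, from 26.1 to 33.2. The third by mean was Hpgd in the PTS + RS group (7.76 FPKM), Ptgs2 in the RS group (5.62 FPKM) and Ptges2 in the RGFP109 and NaCl groups (6.398 and 6.45 FPKM). By their highest library, the remaining order was Hpgd (2.65 to 8.66 FPKM), Ptges2 (5.12 to 6.97), Ptgs2 (1.12 to 6.02), Ptgs1 (2.55 to 5.58), Hpgds (1.20 to 4.55), Ptgis (0.580 to 2.39), Ptges (0.621 to 1.76) and Tbxas1 (0.223 to 1.41), and the ranges of neighbours in this order overlapped. Ptges3 varied least across the 8 libraries, by a factor of 1.27 from the lowest to the highest, and Tbxas1 varied most, by a factor of 6.31. The plot of levels by library shows each transcript on its own scale.

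**Figure D1:**
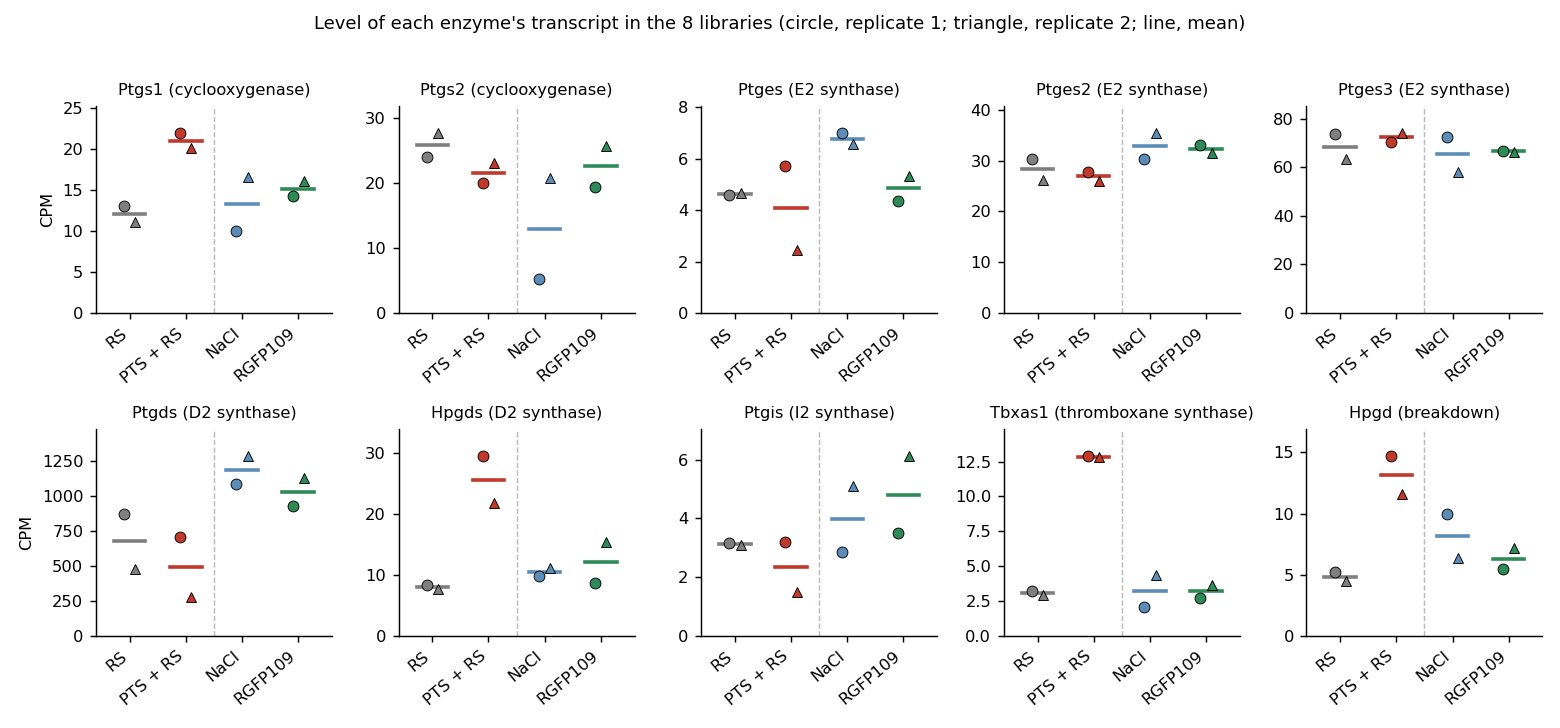
Level of each of the 10 transcripts in CPM (vertical axis, from 0) in the RS, PTS + RS, NaCl and RGFP109 groups, with a circle for replicate 1, a triangle for replicate 2 and a line at the mean of the 2 libraries; the dashed line separates tables that were normalized separately. Tbxas1 stood at 12.9 and 12.8 CPM in the PTS + RS group and at or below 4.35 CPM in the other 6 libraries.

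The first comparison asked how stroke before restraint stress changed these transcripts, in cortex-labelled tissue of the PTS + RS and RS groups. Tbxas1, Hpgds, Hpgd and Ptgs1 were higher with PTS + RS than with RS, and none of the 10 was lower, by edgeR's quasi-likelihood test at an adjusted p under 0.05. Of all 17581 genes tested, 2.96% were called higher and 0.586% lower. The median log2 fold change of the 10 transcripts was 0.0029, close to the -0.0015 of all tested genes, and 5 of the 10 lay above 0. The 4 transcripts called higher belonged to the cyclooxygenase, D2, thromboxane and breakdown steps, 1 in each, and none belonged to the E2 and I2 steps.

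The cyclooxygenases catalyse the first committed step. Ptgs1 (ENSMUSG00000047250, GRCm38 chromosome 2 from 36230426 to 36252272) encodes COX-1, the isoform known as constitutive in many tissues. It was at 21.9 and 20.1 CPM in the PTS + RS libraries and at 13.02 and 11.04 CPM in the RS libraries. Both PTS + RS libraries lay above both RS libraries, and the log2 fold change was 0.80 (standard error, SE, of 0.145, adjusted p = 0.033, edgeR's quasi-likelihood test). The call for Ptgs1 was lost without RS replicate 1, at a log2 fold change of 0.92 (adjusted p = 0.057, edgeR), and without RS replicate 2, at 0.68 (adjusted p = 0.199), where 1.91% and 1.84% of all tested genes were called higher. It also fell short of a log2 fold change of 1. Ptgs2 (ENSMUSG00000032487, chromosome 1 from 150100031 to 150108227) encodes COX-2, the isoform known to be induced by inflammation and by neuronal activity. Its level was 19.96 and 23.1 CPM in the PTS + RS group and 24.1 and 27.7 CPM in the RS group. The PTS + RS libraries lay below the RS libraries, but the log2 fold change of -0.26 (SE 0.133) was not past the threshold (adjusted p = 0.357, edgeR). Libraries of the groups did not overlap in 25.7% of all tested genes on the higher side and in 24.5% on the lower side, so that separation alone was common.

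The ratio of the cyclooxygenases did not overlap between the groups. This follows from Ptgs1 lying higher and Ptgs2 lower without overlap, and is not a further result. The FPKM of Ptgs1 was 1.29 and 1.03 times that of Ptgs2 in the PTS + RS libraries, and 0.638 and 0.470 times in the RS libraries. The summed FPKM of both was 9.90 and 10.2 in the PTS + RS group against 8.56 and 8.86 in the RS group. With 2 libraries against 2, an exact permutation test of such a ratio cannot go below a two-sided p of 0.33.

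The E2 branch showed no call. Ptges (ENSMUSG00000050737, chromosome 2 from 30889471 to 30929863) encodes the microsomal synthase mPGES-1, which is known to be induced together with COX-2. It was at 5.72 and 2.45 CPM in the PTS + RS group and at 4.58 and 4.67 CPM in the RS group, with RS inside the spread of the PTS + RS libraries. The log2 fold change of Ptges was -0.18 (SE 0.380, adjusted p = 0.861, edgeR), and it was 0.30 without PTS + RS replicate 2 and -0.91 without PTS + RS replicate 1. Ptges2 (ENSMUSG00000026820, chromosome 2 from 32395896 to 32405772), a membrane-associated E2 synthase, had a log2 fold change of -0.07 (SE 0.120). Ptges3 (ENSMUSG00000071072, chromosome 10 from 128058954 to 128077272), which encodes the cytosolic E2 synthase also known as the Hsp90 co-chaperone p23, had a log2 fold change of 0.08 (SE 0.0961). These SEs show that the estimate for Ptges was the least precise of the 3.

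In the D2 branch the 2 synthases differed in level and in what the test found. Hpgds (ENSMUSG00000029919, chromosome 6 from 65117293 to 65144908) encodes the haematopoietic D2 synthase, known from mast cells, microglia and other cells of the immune system. It stood at 29.5 and 21.8 CPM in the PTS + RS group and at 8.33 and 7.76 CPM in the RS group. The groups did not overlap, and the log2 fold change was 1.67 (SE 0.182, adjusted p = 0.00427, edgeR). Ptgds (ENSMUSG00000015090, chromosome 2 from 25466709 to 25470046) encodes the lipocalin-type D2 synthase, which is known as a major product of leptomeninges, choroid plexus and oligodendrocytes and is secreted into cerebrospinal fluid. Its level was 709.7 and 282 CPM in the PTS + RS group and 875 and 481 CPM in the RS group. The groups overlapped, and the replicates of each group differed more than the group means did (log2 fold change -0.45, SE 0.425, adjusted p = 0.64, edgeR). Between same-numbered libraries the log2 ratio of Ptgds was -0.30 for replicate 1 and -0.77 for replicate 2. With the replicate number as a block its log2 fold change was -0.54 (SE 0.133, adjusted p = 0.0621, edgeR), which was not past the threshold.

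Ptgds was the member whose result depended most on single libraries. It was called lower without PTS + RS replicate 1, at a log2 fold change of -1.27 (adjusted p = 0.002, edgeR), where 4.13% of all tested genes were called lower, and had a log2 fold change of 0.06 without PTS + RS replicate 2 and of 0.03 without RS replicate 1. Without a filter on low counts it was also called lower (log2 fold change -0.46, adjusted p = 9.7e-05, edgeR), as were 2.38% of all genes in that fit. PTS + RS replicate 2, the library with the lowest Ptgds level, had the lowest summed level of 10 markers of meningeal fibroblasts, at 102 CPM against 132 to 238 CPM in the other 3 libraries. The summed level of 10 choroid plexus markers was 226 CPM in that library and between 2541 and 5577 CPM in the other 3. The summed level of 8 oligodendrocyte markers went the other way and was highest in that library, at 7493 CPM against 5423 to 6665 CPM. All 10 choroid plexus markers had log2 fold changes below 0, with a median of -1.71 and no call. RS replicate 2 had their highest sum, 5577 CPM, and 481 CPM of Ptgds, above only PTS + RS replicate 2. In the separately normalized table, RGFP109 replicate 2 and both NaCl libraries had sums of 182 to 223 CPM and 1088 to 1288 CPM of Ptgds. RGFP109 replicate 1 had a sum of 2214 CPM and 926 CPM of Ptgds. The part of these tissues and cells in the Ptgds values was not tested.

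The FPKM of Ptgds exceeded that of Hpgds by a factor of 93.6 and 50.4 in the PTS + RS libraries and of 409 and 242 in the RS libraries. Hpgds thus made up 1.06% and 1.95% of the summed FPKM of the D2 synthases in the PTS + RS group, against 0.244% and 0.412% in the RS group. The summed D2 level itself overlapped between the groups, at 431 and 173 FPKM against 529 and 292 FPKM, since Ptgds dominated it.

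Ptgis (ENSMUSG00000017969, chromosome 2 from 167191805 to 167240604) encodes prostacyclin synthase, which is known from vascular endothelium and smooth muscle. It was at 3.21 and 1.496 CPM in the PTS + RS group and at 3.15 and 3.09 CPM with RS alone. The fitted log2 fold change was -0.40 (SE 0.384, adjusted p = 0.647, edgeR), and it was 0.04 without PTS + RS replicate 2 and -1.06 without PTS + RS replicate 1, so that the lower mean rested on replicate 2. The gene overlaps 1110018N20Rik on the opposite strand, which had between 54 and 150 counts a library against 25 to 131 for Ptgis. Whether strand was used in the counting was not stated, so that reads in the shared part cannot be assigned with certainty.

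Tbxas1 (ENSMUSG00000029925, chromosome 6 from 38875404 to 39084585) encodes thromboxane A synthase, known from platelets and macrophages. It had the largest rise of the 10 transcripts. It was at 12.9 and 12.8 CPM in the PTS + RS group and at 3.20 and 2.97 CPM in the RS group, with no overlap. The log2 fold change was 2.06 (SE 0.182, adjusted p = 0.002, edgeR), which is a fold of 4.16. Counts were 221 and 214 against 58 and 47. The gene overlaps Hipk2 on the opposite strand, which had 1289 and 1193 counts in the PTS + RS libraries and 1177 and 1364 in the RS libraries, with overlap.

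Hpgd (ENSMUSG00000031613, chromosome 8 from 56294585 to 56321043) encodes 15-hydroxyprostaglandin dehydrogenase, which starts the inactivation of prostaglandins. It stood at 14.7 and 11.6 CPM in the PTS + RS group and at 5.19 and 4.48 CPM in the RS group. The libraries of the groups did not overlap, and the log2 fold change was 1.44 (SE 0.199, adjusted p = 0.0115, edgeR). Relative to the summed FPKM of Ptgs1 and Ptgs2, Hpgd was at 0.874 and 0.675 in the PTS + RS group and at 0.358 and 0.299 in the RS group. The breakdown enzyme was therefore higher both in level and relative to the cyclooxygenases.

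**Figure D2:**
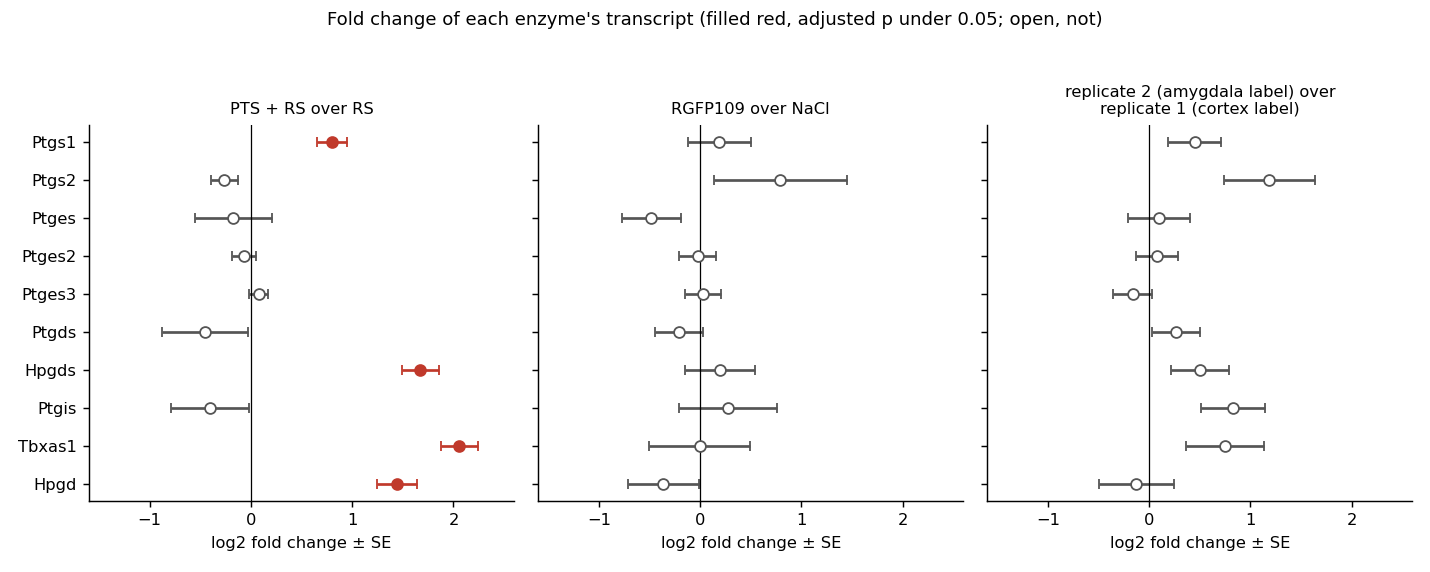
Log2 fold change (horizontal axis, bars show the standard error, SE) of the 10 transcripts for PTS + RS over RS, RGFP109 over NaCl, and replicate 2 (amygdala label) over replicate 1 (cortex label), from edgeR's quasi-likelihood fit. Filled red points mark an adjusted p under 0.05 and occur for Tbxas1 (2.06), Hpgds (1.67), Hpgd (1.44) and Ptgs1 (0.80) in the first panel.

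The promoters of the 4 transcripts that rose are shown because these genes were called higher in the same comparison. Each line gives the 100 bases before the transcription start site in the RefSeq table for GRCm38.p6, 5′ to 3′ on the strand of the gene. For Tbxas1 this start, 38918986, lies inside the gene, which begins at 38875404 and has 7 annotated transcripts. Other possible starts were not searched. Ptgs2 is added as the cyclooxygenase that did not rise. Capitals mark GAGGAAG or its reverse complement CTTCCTC, letters found in binding sites of the myeloid transcription factor PU.1.
Tbxas1, chr6:38918886-38918985, plus strand: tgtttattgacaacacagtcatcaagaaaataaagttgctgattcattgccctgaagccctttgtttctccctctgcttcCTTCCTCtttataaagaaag
Hpgds, chr6:65144731-65144830, minus strand: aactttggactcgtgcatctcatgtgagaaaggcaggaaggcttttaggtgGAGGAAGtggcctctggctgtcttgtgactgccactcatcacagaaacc
Ptgs1, chr2:36230326-36230425, plus strand: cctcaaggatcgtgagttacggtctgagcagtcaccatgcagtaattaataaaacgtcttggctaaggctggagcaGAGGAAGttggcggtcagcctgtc
Hpgd, chr8:56294452-56294551, plus strand: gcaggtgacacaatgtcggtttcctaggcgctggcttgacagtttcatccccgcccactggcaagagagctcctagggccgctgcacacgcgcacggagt
Ptgs2, chr1:150099931-150100030, plus strand: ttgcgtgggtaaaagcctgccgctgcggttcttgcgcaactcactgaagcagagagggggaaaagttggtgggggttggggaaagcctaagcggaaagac

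The 7 letters were present, on either strand, in the promoters of Ptgs1, Hpgds and Tbxas1, starting 24, 49 and 20 bases before the start site, and did not overlap another of the 3 motifs searched. They were not found within 250 bases before the start of Hpgd, Ptgs2, Ptges, Ptges2, Ptges3 or Ptgds. The start used for Ptges, 30903297, also lies inside its gene. The table held promoters for 9 of the 10 genes and none for Ptgis. Of all 32851 promoters in the table, 4.72% held the letters within 100 bases and 10.6% within 250 bases before the start. TGACTCA, an AP-1 site, was found in the promoter of Ptgds, 35 bases before the start, and in 4.46% of all promoters over 250 bases. GGGCGG, a GC box, was found in those of Ptgs2, Ptges, Ptges3 and Hpgd and in 32.7% of all. The number of CpG dinucleotides in the 250 bases was 3 for Hpgds, 4 for Tbxas1, 5 for Ptgs1 and 9 for Hpgd. Among the transcripts that were not called it was 2 for Ptgds, 8 for Ptges, 13 for Ptgs2, 15 for Ptges2 and 38 for Ptges3, so that the counts overlapped. These matches describe the sequence and do not show that a factor binds there.

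Compared by branch, the summed levels of the D2 and E2 synthases stood far above those of prostacyclin synthase and thromboxane synthase. By summed FPKM, the D2 synthases made up 91.3% and 80.9% of all terminal synthases in the PTS + RS libraries and 92.7% and 88.9% in the RS libraries. The E2 synthases made up 8.14% and 18.2% against 7.04% and 10.6%, most of it from Ptges3. Thromboxane synthase made up 0.298% and 0.654% against 0.0613% and 0.0990%, with no overlap between the groups. The prostacyclin synthase was at 0.263% and 0.271% against 0.214% and 0.365%. Shares of a sum depend on each other, and the shares of the E2, I2 and thromboxane branches all moved with the level of Ptgds.

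The summed level of the E2 synthases was 38.4 and 38.9 FPKM in the PTS + RS libraries and 40.2 and 34.8 FPKM in the RS libraries, and the groups overlapped. Tbxas1 was at 1.41 and 1.40 FPKM against 0.350 and 0.325. To set the lower expressed synthases side by side, the shares were also taken among Ptges, Hpgds, Ptgis and Tbxas1 alone, a choice made after their values were seen. Hpgds then made up 52.7% and 56.5% in the PTS + RS libraries and 32.1% and 30.8% in the RS libraries, and Tbxas1 16.3% and 23.4% against 8.71% and 8.31%. Ptges made up 16.7% and 10.4% against 28.8% and 30.3%, and Ptgis 14.3% and 9.70% against 30.3% and 30.7%. In the RS libraries Ptges, Hpgds and Ptgis were thus near each other, and in the PTS + RS libraries Hpgds led. The shares of Ptges and Ptgis also fall when Hpgds and Tbxas1 rise in the same sum. In level, the groups overlapped for Ptges and for Ptgis, with log2 fold changes of -0.18 and -0.40 and no call.

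**Figure D3:**
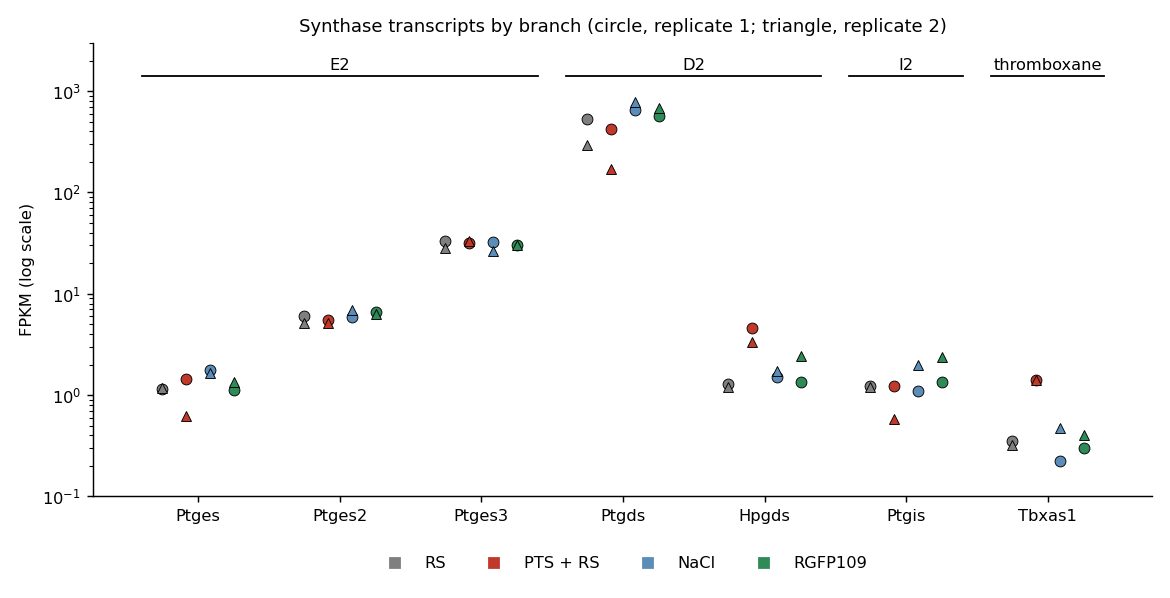
FPKM (vertical log axis) of the 7 terminal synthases, ordered by branch, with a circle for replicate 1 and a triangle for replicate 2 of each group (grey RS, red PTS + RS, blue NaCl, green RGFP109). Ptgds lay between 170.0 and 778 FPKM, and only Hpgds and Tbxas1 had both PTS + RS libraries above the other 6 libraries.

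Other genes of the pathway were taken from a list of 34, of which 30 had enough counts to be tested in this comparison. In this list 1 gene was called higher and 0 lower by edgeR's quasi-likelihood test, and 20 of the 30 lay above 0 with a median log2 fold change of 0.08. The gene called was Pla2g7, a phospholipase of the platelet-activating factor acetylhydrolase type, with a log2 fold change of 0.60 (SE 0.0919, adjusted p = 0.0178). Among the genes of arachidonate supply, Pla2g4a, the cytosolic phospholipase A2, had a log2 fold change of 0.38 (adjusted p = 0.406, edgeR), and Mgll, which breaks down 2-arachidonoylglycerol, had one of 0.02. Prxl2b, a prostaglandin F synthase that the table lists as Fam213b, had a log2 fold change of -0.58 (adjusted p = 0.072, edgeR). Of the receptors, the E2 receptor gene Ptger4 had a log2 fold change of 1.09 (SE 0.308, adjusted p = 0.121, edgeR), at 2.89 CPM in the PTS + RS group. Ptger2, Ptgir and Ptgdr2 had too few counts to be tested. Pla2g5, a secreted phospholipase, had a log2 fold change of -1.48 (SE 0.492, adjusted p = 0.178, edgeR).

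Markers of microglia were also higher in the comparison where the 4 transcripts rose. All 10 listed microglia markers were called higher in the PTS + RS group, as were 2.96% of all tested genes. The marker lists were chosen with earlier results of these data known. The microglia markers had log2 fold changes from 1.02 to 2.84 and a median of 2.03, beside 2.06 for Tbxas1, 1.67 for Hpgds, 1.44 for Hpgd and 0.80 for Ptgs1. The summed level of these markers was 1261 and 1061 CPM in the PTS + RS libraries and 310.1 and 279 CPM in the RS libraries. Of 8 astrocyte markers, 5 were called higher, with a median of 0.59. Of 6 markers of border macrophages, 5 could be tested, all lay above 0 with a median of 0.74, and none was called. In bulk tissue, more cells of a type and more RNA per cell cannot be told apart, and the part of these cells in the 4 rises was not tested.

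Most markers of mast cells, known for Hpgds, and of platelets, known for Tbxas1, left few counts. Macrophages are also known for Tbxas1, and the border macrophage markers given above had a median log2 fold change of 0.74. Of the mast cell markers, Cpa3, Mcpt4, Tpsb2, Cma1 and Fcer1a had at most 5 counts in any of the 4 libraries, and Kit, which neurons express as well, had a log2 fold change of 0.05. Of the platelet markers, Ppbp, Gp1bb and Treml1 had at most 5 counts in any of these libraries, Gp9 had at most 12, and Itga2b had a log2 fold change of -0.01. Pf4, which platelets share with border macrophages, had between 3 and 28 counts and a log2 fold change of 1.79 (adjusted p = 0.176, edgeR).

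**Figure D4:**
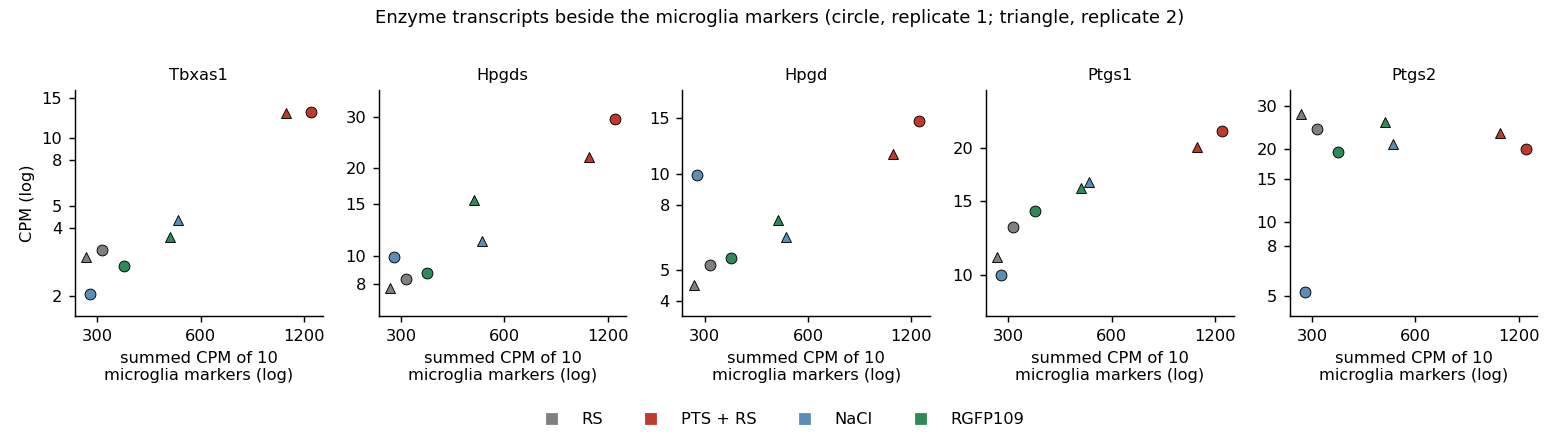
CPM of Tbxas1, Hpgds, Hpgd, Ptgs1 and Ptgs2 (vertical log axis) against the summed CPM of 10 microglia markers (horizontal log axis) in the 8 libraries, with a circle for replicate 1 and a triangle for replicate 2 (grey RS, red PTS + RS, blue NaCl, green RGFP109). The PTS + RS libraries lay at 1261 and 1061 CPM of the markers and the other 6 between 279 and 516 CPM; NaCl replicate 1 lay apart for Ptgs2, at 5.18 CPM.

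The genes of most similar pattern were found by the root mean square difference of log2 CPM over the 8 libraries, after each gene was centred on its mean in each table, among 16946 other genes tested in both tables. For Ptgs1 they were Jak3 (0.0693), Scrg1 (0.0779) and Tgfbr1 (0.105), against a root mean square of 0.354 for the pattern of Ptgs1 itself. For Hpgds they were Cd33 (0.121), Slco2b1 (0.145) and Gna15 (0.157), against 0.630 for Hpgds. For Hpgd they were Irgm1 (0.0896), Igtp (0.162) and Aim2 (0.162), against 0.557 for Hpgd. For Ptgds they were Cped1 (0.140), Hcar1 (0.150) and Mrgprf (0.153), against 0.456 for Ptgds. The nearest genes of the 4 members did not overlap.

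The second comparison asked whether RGFP109 changed these transcripts in PTS + RS mice. None of the 10 was called, and 0% of the 17565 genes tested were called higher or lower by edgeR's quasi-likelihood test. At an unadjusted p under 0.05, 88 genes were higher and 118 were lower, none of them among the 10 transcripts. DESeq2 called 0 genes higher and 1 lower, and limma-voom called 0 in either direction. Counts were simulated over 17156 genes from the dispersion of this fit, with no effect shared by same-numbered libraries. Of the genes changed by a log2 fold change of 1, 8.25% were recovered, and of those changed by 2, 68.8%. Changes of the smaller size were thus mostly not detectable by this fit, and a fit with the replicate number as a block was not simulated.

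Ptgs2 had the largest log2 fold change of the 10 transcripts, at 0.79 (SE 0.660, adjusted p = 1, edgeR). It was at 19.4 and 25.8 CPM with RGFP109 and at 5.18 and 20.9 CPM with NaCl. The low value came from NaCl replicate 1, the library with olfactory bulb markers, and without it the log2 fold change was 0.11. With that library as the only NaCl library the log2 fold change was 2.14 (adjusted p = 0.091, edgeR), and with the replicate number as a block it was 1.08 (adjusted p = 1). Ptges was at 4.38 and 5.33 CPM with RGFP109 and at 6.997 and 6.58 CPM with NaCl. It was the only member whose libraries did not overlap, on the lower side, as in 13.8% of all tested genes (12.8% on the higher side). The log2 fold change of Ptges was -0.48 (SE 0.292, adjusted p = 1, edgeR), and -0.44 without NaCl replicate 1.

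Ptgs1 was at 14.2 and 16.1 CPM with RGFP109 and at 10.01 and 16.6 CPM with NaCl, and its log2 fold change of 0.19 (SE 0.311) became -0.14 without NaCl replicate 1 and 0.61 without NaCl replicate 2. Hpgd was at 5.45 and 7.20 CPM against 9.95 and 6.36 CPM. Its log2 fold change was -0.36 (SE 0.353), and it was -0.01 without NaCl replicate 1 and -0.64 without NaCl replicate 2. For both transcripts the size of the difference thus depended on which NaCl library was kept.

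In the D2 branch, Ptgds was at 926 and 1134 CPM with RGFP109 and at 1088 and 1288 CPM with NaCl (log2 fold change -0.21, SE 0.237). Hpgds was at 8.69 and 15.5 CPM against 9.90 and 11.2 CPM (0.20, SE 0.347). The remaining members were Ptgis at 3.49 and 6.12 CPM against 2.84 and 5.11 CPM, Tbxas1 at 2.73 and 3.65 CPM against 2.05 and 4.35 CPM, Ptges2 at 33.2 and 31.6 CPM against 30.3 and 35.4 CPM, and Ptges3 at 66.7 and 66.3 CPM against 72.4 and 58.1 CPM. The libraries of the groups overlapped for all 6 of these transcripts, and their log2 fold changes lay between -0.21 and 0.28. Of the list of other pathway genes, 31 were tested and 0 were called, and Ptger2 had the lowest unadjusted p (log2 fold change -2.01, SE 0.719, adjusted p = 1, edgeR). Ptger2 was near the floor, with 3 to 24 counts a library and mean levels of 0.235 CPM with RGFP109 and 0.982 CPM with NaCl.

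By branch, the D2 synthases made up 93.5% and 94.5% of the summed FPKM of the terminal synthases with RGFP109, and 94.1% and 95.4% with NaCl. The E2 synthases made up 6.27% and 5.14% against 5.75% and 4.25%. Thromboxane synthase was at 0.0498% and 0.0549% against 0.0320% and 0.0583%, and prostacyclin synthase was at 0.226% and 0.327% against 0.158% and 0.243%. The groups overlapped in each branch.

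The libraries of PTS + RS mice in this second table did not show the levels of the PTS + RS group in the first. Tbxas1 was between 2.05 and 4.35 CPM in the 4 libraries with RGFP109 or NaCl, near the RS libraries (2.97 and 3.20 CPM) and below the PTS + RS libraries (12.8 and 12.9 CPM). Hpgds was between 8.69 and 15.5 CPM, against 7.76 and 8.33 CPM in the RS group and 21.8 and 29.5 CPM in the PTS + RS group. The summed level of the microglia markers in these 4 libraries was between 286 and 516 CPM. The tables were normalized separately, so that these levels stand side by side without a test, and their labelled tissues and handling differ in ways that cannot be told apart from the groups.

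The labelled tissue was compared across the same 4 libraries, replicate 2 against replicate 1, with treatment as a term in the fit. None of the 10 transcripts was called by edgeR's quasi-likelihood test, as 0% of all tested genes. At an unadjusted p under 0.05 of that test, 1069 genes were higher and 538 lower. DESeq2, at an adjusted p under 0.05, called 154 genes higher and 56 lower, none of them among the 10 transcripts. The median log2 fold change of the 10 was 0.36 (-0.01 over all tested genes), and 8 of the 10 lay above 0. The libraries did not overlap for 7 of the 10, of which 6 were higher in the amygdala-labelled libraries, against 21.6% of all tested genes on the higher and 22.4% on the lower side.

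Ptgs2 had the largest log2 fold change between the labels, at 1.19 (SE 0.448, adjusted p = 0.546, edgeR), and was 0.28 without NaCl replicate 1. Ptgis was next at 0.83 (SE 0.320, adjusted p = 0.555), then Tbxas1 at 0.75 (SE 0.388), Hpgds at 0.51 and Ptgs1 at 0.45. Ptges3 was the only transcript that did not overlap on the lower side, at -0.16. Without RGFP109 replicate 1, Ptgs1 (0.71), Ptgs2 (2.18), Ptgis (0.99) and Tbxas1 (0.96) were called higher, as were 15.1% of all tested genes, with NaCl replicate 1 then the only cortex-labelled library. Without NaCl replicate 1, 1 transcript was called, Ptgds at 0.40 (adjusted p = 0.012, edgeR), with 8.27% of all tested genes called higher. These fits of 3 libraries held no treatment term. The calls between the labels thus depended on which cortex-labelled library was kept, and no member was called with both.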

How the data were processed

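The paper's methods and the labels say that STAR 2.4.0 (alignment to GRCm38) and HTSeq 0.6.1 (counting) were run by the authors on paired-end reads. The deposited counts are raw reads per gene. The FPKM values deposited by the authors are these counts divided by gene length and by a factor for each library. The labels and the paper name different library kits, and the strand setting of the counting was not given in the sources used here. The deposited tables also hold group means, fold changes and p-values of the authors, which were not used, and 8 columns of per-library values were not used. The table of RGFP109 and NaCl lists 28229 genes, which were joined to the identifiers of the other table by position.

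Genes were filtered by filterByExpr and normalized by TMM in edgeR 4.0.16 (R 4.3.3) and compared by its quasi-likelihood test, and p-values were adjusted over all tested genes by the Benjamini-Hochberg method. A gene was called at an adjusted p under 0.05. The SE was derived from the test, as the size of the log2 fold change divided by the square root of the F statistic. Labelled tissue was compared with treatment as a term. A prior count of 2 was added before log2 CPM were taken of single libraries. Branches were sums of FPKM, E2 being Ptges, Ptges2 and Ptges3, and D2 being Ptgds and Hpgds. Levels were also computed as TPM from counts and gene lengths. Alternatives were DESeq2 1.42.0, limma-voom (limma 3.58.1), RLE size factors, no filter, a log2 fold change of at least 1, the replicate number as a block, no treatment term and leaving out each library. The fit was tested on simulated counts. Counts of replicates differed by more than sampling noise (chi-square per gene between 4.6 and 75.5). Same-numbered libraries of the RGFP109 and NaCl groups share a labelled tissue, and their deviations correlated at 0.299. In the other comparison the correlation was 0.0352. Promoters were read from a RefSeq table with Python 3.11.15.

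The 10 members and all lists were chosen with earlier results of these data known. Genes named beside the members were those of the pathway list past the threshold or with the 3 lowest p-values otherwise, the defining markers, and the 3 genes nearest in pattern to Ptgs1, Hpgds, Hpgd and Ptgds. Pla2g4a and Mgll were named after their values were seen, as were receptors with too few counts.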

Additional observations from a re-analysis of the deposited data

Results flagged for a closer look

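The ratio of RGFP109 to NaCl had opposite signs in the cortex-labelled and the amygdala-labelled pair of libraries for 6 of the 10 transcripts, as for 51.3% of all 17565 tested genes. With 1 library on each side the difference was not tested. In log2 units, Hpgd was at -0.85 in the pair of replicate 1 (cortex label) and at 0.18 in the pair of replicate 2 (amygdala label). Ptgs1 was at 0.50 and -0.044, Tbxas1 at 0.40 and -0.25, Hpgds at -0.19 and 0.46, Ptges2 at 0.13 and -0.16, and Ptges3 at -0.12 and 0.19. The replicate 1 pair holds NaCl replicate 1, the library with olfactory bulb markers.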

How the results depend on the processing

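Of the 4 transcripts called higher in PTS + RS against RS, Tbxas1, Hpgds and Hpgd kept their call under every alternative, and Ptgs1 lost it without either RS library and where a log2 fold change of at least 1 was required. The cause of the changes below was not tested. Where leaving out a library left 1 in a group, that library was assumed to vary like the others. With the replicate number as a block, 4 members were called higher and 0 lower, no member's call changed in either comparison, and 1 other pathway gene was called lower, with 228 genes called lower of all tested against 103 without the block. Without a filter on low counts, 1 member (Ptgds) was called lower, and 2 other pathway genes were called higher and 2 lower (3.72% and 2.38% of all genes). With a log2 fold change of at least 1 required, 0 other pathway genes were called. Leaving out 1 library at a time gave 0 to 1 members called lower, 0 to 2 other pathway genes called higher and 0 to 3 lower, beside 1.84% to 7.69% of all genes higher and 0.174% to 6.96% lower. The log2 fold change then ranged from -0.91 to 0.30 for Ptges, -0.18 to 0.038 for Ptges2, -0.033 to 0.18 for Ptges3, -1.27 to 0.062 for Ptgds and -1.06 to 0.039 for Ptgis.

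For RGFP109 against NaCl, no member was called under any alternative. The log2 fold change of Tbxas1, -0.0039, was 0.0049 in DESeq2, 0.090 in limma-voom, 0.0049 with RLE size factors, 0.0032 without a filter and 0.063 with the replicate block. Leaving out 1 library at a time, it ranged from -0.45 to 0.65, and the ranges were 0.11 to 2.14 for Ptgs2, -0.14 to 0.61 for Ptgs1, -0.14 to 0.10 for Ptges2, -0.11 to 0.19 for Ptges3, -0.28 to 0.55 for Hpgds and -0.19 to 0.77 for Ptgis, with 0 to 1 other pathway genes called lower beside 0% to 0.419% of all genes. For the labelled tissues, leaving out 1 library gave 0 to 4 members, 0 to 6 other pathway genes called higher and 0 to 5 lower, beside 0% to 15.1% of all genes higher and 0% to 13.6% lower, in fits that could not keep the treatment term. The ranges were -0.23 to 0.45 for Ptges and -0.55 to 0.33 for Hpgd.

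TPM and FPKM give the same branch shares by construction, so that this alternative tested nothing. With Ptges alone for the E2 branch, the E2 share fell to a mean of 0.342% (PTS + RS), 0.310% (RS), 0.196% (RGFP109) and 0.240% (NaCl), and the D2 share was 98.8%, 99.3%, 99.5% and 99.5%, because Ptges3 and Ptges2 are left out by construction. In simulated data with the same 2 libraries a group, 69.8% of genes changed by a log2 fold change of 1 and 93.9% of those changed by 2 were recovered for PTS + RS against RS (17257 genes), against 8.25% and 68.8% for RGFP109 against NaCl (17156 genes). The part of depth in this was not tested.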
